A study of Mus musculus with 5 samples.

Results

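The collagen genes were taken from RNA sequencing of brown adipose tissue (BAT) as every protein-coding mouse gene whose symbol is Col, a type number, the letter a and a chain number. This gave 44 genes of 27 collagen types out of 52022 genes with transcripts in the data, and they were divided by type number into 9 fibrillar genes (types 1, 2, 3, 5 and 11), 8 basement membrane genes (types 4, 15 and 18), 6 genes of type 6 and 21 others. BAT came from 3 ATF4 BKO mice and 2 WT mice, 1 library per mouse, all described as male, 10 to 12 weeks old, fed ad libitum, acclimated to 30 °C and then held for 3 days at 4 °C. ATF4 BKO mice carried floxed Atf4 alleles and a Cre transgene driven by the Ucp1 promoter, which limits the deletion to thermogenic adipocytes. WT mice were littermates with the same floxed alleles and no Cre. The cells that make most interstitial collagen, fibroblasts and adipocyte progenitors, were therefore not the cells the deletion was designed for, and in bulk tissue fewer cells of a type and less RNA per cell cannot be told apart.

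Collagens are the main proteins of the extracellular matrix, each built of 3 chains that wind into a triple helix. Fibrillar collagens form the tension-bearing fibers between cells, type 6 forms beaded filaments around adipocytes, and type 4 forms the sheet of the basement membrane that wraps every adipocyte and capillary. ATF4 is a transcription factor of the integrated stress response that raises amino acid uptake and synthesis, and glycine is the most frequent residue of a collagen helix.

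Total estimated counts ranged from 24698337 to 32452751 per mouse. Atf4 had 739, 1478 and 697 counts across ATF4 BKO replicates 1, 2 and 3, against 9028 and 7674 in WT replicates 1 and 2, so every ATF4 BKO mouse lay below both WT mice. Ucp1, the uncoupling protein that marks brown adipocytes, had between 274275 and 388388 counts in every mouse. One library went against its sex label: ATF4 BKO replicate 1 had 4598 counts of Xist, where no other mouse had more than 7. Markers of skeletal muscle, which lies against this fat depot, summed to 103 and 2368 CPM (counts scaled to library size) in WT replicates 1 and 2 and to 7.502, 33.4 and 4.54 CPM in the ATF4 BKO mice, with all 15 markers lower in each ATF4 BKO mouse than in either WT mouse. Their part in the collagen results was not tested. A fit with their level as a covariate cannot separate it from genotype, since the level did not overlap between genotypes. Sample names carried 1 of 2 prefixes of unstated meaning, with 1 prefix (here the first) shared by WT replicate 1 and ATF4 BKO replicates 1 and 2, and the other (the second) by WT replicate 2 and ATF4 BKO replicate 3.

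The helix can be read in the coding sequence as a run of 3-codon units that each begin with a glycine codon, GG followed by any base. In Col1a1 the first bases of the longest run, coding bases 502 to 555 of transcript Col1a1-201 in GENCODE M21, show the unit without a break, with the GG of each glycine codon in capitals. In Col4a1 (Col4a1-201, coding bases 460 to 513) and Col4a2 (Col4a2-201, coding bases 487 to 540) the stretch shown covers the end of the first run. These 3 were chosen because they are the main fiber and sheet genes whose levels behaved differently between mice.
Col1a1: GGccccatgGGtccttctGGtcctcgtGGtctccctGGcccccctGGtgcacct
Col4a1: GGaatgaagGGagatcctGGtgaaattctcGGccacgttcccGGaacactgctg
Col4a2: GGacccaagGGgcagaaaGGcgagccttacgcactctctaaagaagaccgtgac
The Col1a1 stretch holds 6 units in a row, while in Col4a1 and Col4a2 the spacing of glycine codons is lost after the first 3 units. Counting runs of at least 6 units, the 9 fibrillar genes each had 2 runs, with 337 to 344 units in the longest. The 6 chains of type 4 had 22 to 27 runs each, the longest of 39 to 66 units. In Col6a1 and Col6a2 the longest run had 87 units, and in Col12a1, a large collagen with short helices that sits on the surface of fibers, 32 units. Sequence shared with other genes was rare: at most 5.35% of the 31-base words of a collagen gene, in Col9a3, occurred in another gene.

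Collagen mRNA made up 0.563%, 0.649% and 0.329% of estimated counts in ATF4 BKO replicates 1, 2 and 3 and 0.489% and 0.549% in WT replicates 1 and 2. Per transcript length, in TPM (scaled for length and library size), Col4a1, Col3a1 and Col4a2 together held 59.9% to 72.4% of collagen mRNA in each mouse. The basement membrane class held 39.3% to 64.2% of collagen TPM, the fibrillar class 21.4% to 43.4%, type 6 11.6% to 16.6% and the others 2.67% to 7.40%. A minimum of 10 counts in at least 2 mice was passed by 33 collagen genes: 8 fibrillar, 7 basement membrane, 4 of type 6 and 14 others. Of these, Col11a1 and Col22a1 reached 10 counts in ATF4 BKO mice alone, so passing already required them to be higher there, and counts below are also given for the other 31. The 11 that did not pass were Col2a1, Col9a1 and Col9a2 of cartilage, Col4a6, Col6a4, Col6a5, Col8a2, Col17a1, Col19a1, Col24a1 and Col25a1, of which Col6a5 had the highest count of any mouse, 39 in ATF4 BKO replicate 1. In the plot of TPM by mouse, levels of genes past the filter span from under 0.1 to over 400 TPM.

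**Figure D1:**
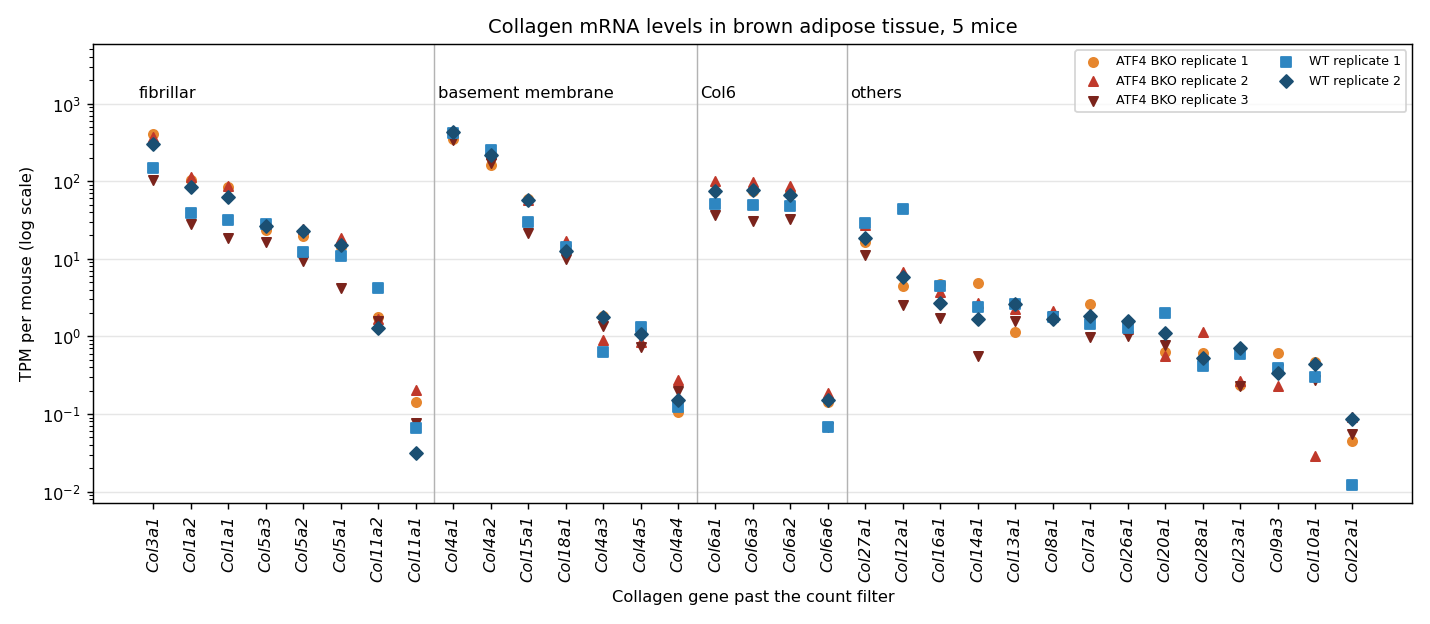
TPM in each of the 5 mice (points, log scale) for the 33 collagen genes past the count filter, ordered by mean TPM within each class. Col3a1, Col1a1 and Col1a2 are widely spread between mice with ATF4 BKO replicate 3 lowest, the points of Col4a1 nearly coincide, and WT replicate 1 stands alone for Col12a1.

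The question was whether loss of ATF4 in thermogenic adipocytes went with a change in collagen mRNA. All 16450 genes past the filter entered edgeR's quasi-likelihood test, and a gene was called at a Benjamini-Hochberg adjusted p under 0.05. No collagen gene passed: 0 of 33 were called by edgeR, with the smallest adjusted p at 0.911, and 0 of 33 by DESeq2, with the smallest adjusted p at 0.548. The deleted gene, Atf4, had a log2 fold change of -2.82 and was not called by edgeR either (adjusted p 0.671). Its DESeq2 adjusted p was 9.7e-12. A lack of edgeR calls therefore does not show that collagen mRNA was unchanged. Over all genes, edgeR called 0.00608% (1 gene, Cacna1i, higher in ATF4 BKO) and DESeq2 called 0.736% (0.608% lower and 0.128% higher). An unadjusted edgeR p under 0.05 was reached by 3 of 33, Col4a5 and Col12a1 with lower and Col22a1 with higher levels, against 5.23% of all genes (3.42% lower and 1.81% higher). Without Col11a1 and Col22a1 it was 2 of 31, both lower. All 3 ATF4 BKO mice lay below both WT mice for 3 of 33 genes (Col4a5, Col13a1 and Col23a1) and above both for 4 of 33 (Col4a3, Col8a1, Col22a1 and Col28a1), against 10.6% and 8.95% of all genes, and the latter became 3 of 31 without Col22a1 and Col11a1. By sign alone, 14 collagen genes had a log2 fold change below 0 (48.8% of all genes did), and their median was 0.12 beside 0.01 for all genes. That median turned to -0.02 and -0.03 on log2(TPM + 1) and log2(TPM + 0.1), scales on which all genes together had medians of -0.12 and -0.17, to -0.05 without ATF4 BKO replicate 1 and to -0.06 with the name prefix as a block. Simulated data of the same size had a single dispersion. In them edgeR recovered 96 of 100 genes changed 4-fold and 12 of 100 genes changed 2-fold. Changes of the second size were thus mostly below what 3 and 2 mice could show. The recovery of 4-fold changes holds only for data in which every gene has that same dispersion, and the measured data were not shown to be such. It does not show that such a change would have been called in any measured gene, least of all in those that varied more between mice, such as Col1a1. In the measured data Atf4, with a larger change (log2 fold change of -2.82), was not called by edgeR.

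**Figure D2:**
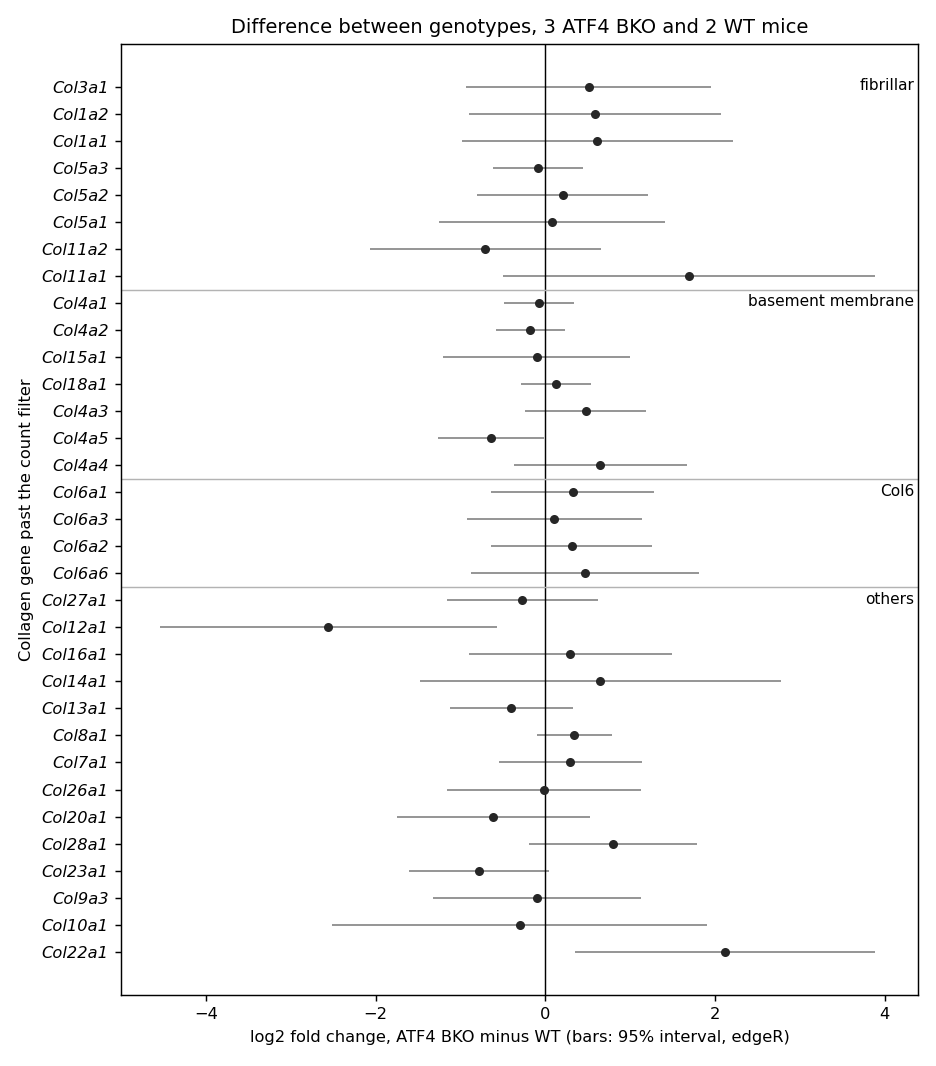
Log2 fold change of ATF4 BKO over WT (points) with its 95% interval from edgeR (bars) for the 33 collagen genes past the count filter, by class. The intervals of Col4a5, Col12a1 and Col22a1 leave out 0 before adjustment, Col22a1 being a gene that passed the filter through ATF4 BKO mice alone, none passed after adjustment, and Col4a1, Col4a2 and Col18a1 have narrow intervals around 0.

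Among fibrillar genes, Col1a1 (chr11:94936224-94953042, plus strand, GRCm38), the alpha 1 chain of type 1, was measured at 84.5, 87.4 and 18.4 TPM in ATF4 BKO replicates 1, 2 and 3 and at 31.5 and 62.2 TPM in WT replicates 1 and 2. Col1a2, its partner chain, was at 104, 113 and 28.2 TPM in ATF4 BKO mice and at 39.4 and 83.7 TPM in WT mice. Col3a1 (chr1:45311538-45349706, plus strand), which forms fibers together with type 1, was at 402, 368 and 104 TPM in ATF4 BKO mice and at 148 and 304 TPM in WT mice. For all 3 genes the order of mice was the same at its low end: ATF4 BKO replicate 3 was lowest, WT replicate 1 next and WT replicate 2 in the middle, with ATF4 BKO replicates 1 and 2 highest, so the genotypes overlapped. Their log2 fold changes were 0.61 (SE 0.66), 0.58 (SE 0.61) and 0.51 (SE 0.59), and the edgeR adjusted p was 0.942 for each. The fold between the highest and the lowest mouse on the CPM scale was 4.68 for Col1a1, 3.82 for Col1a2 and 3.83 for Col3a1. In contrast, the chains kept nearly fixed proportions: Col1a1 over Col1a2 was 0.65 to 0.81 in TPM and Col3a1 over Col1a1 was 4.21 to 5.67.

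Type 5 collagen joins type 1 inside fibers and sets their width. Col5a1 was at 14.02, 18.5 and 4.21 TPM in ATF4 BKO mice and at 10.8 and 15.3 TPM in WT mice, and Col5a2 at 19.6, 24.2 and 9.33 TPM and at 12.3 and 22.9 TPM. Both followed the mouse order of type 1 at the low end, with ATF4 BKO replicate 3 lowest and WT replicate 1 next. Col5a3 was at 23.7, 28.2 and 16.5 TPM in ATF4 BKO mice and at 28.3 and 26.1 TPM in WT mice, a narrower range with WT replicate 1 at the top. The log2 fold changes were 0.08 (SE 0.55), 0.20 (SE 0.41) and -0.09 (SE 0.22), and the sign of the first 2 turned on the TPM scales. The type 11 genes, best known from cartilage, were low: Col11a1 had 2 to 18 counts, and Col11a2 had 149, 123 and 162 counts in ATF4 BKO mice against 453 and 120 in WT mice, with WT replicate 1 alone high.

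The basement membrane class was led by the paired chains of the type 4 network. Col4a1 (chr8:11198423-11312826, minus strand) was at 351, 432 and 339 TPM in ATF4 BKO mice and at 422 and 433 TPM in WT mice, or 374 ± 50.6 (SD, n = 3) and 428 ± 8.26 (SD, n = 2). Col4a2 was at 163, 222 and 173 TPM in ATF4 BKO mice and at 250 and 215 TPM in WT mice. Both genes varied little between the 5 mice, and the genotypes overlapped. The log2 fold change of Col4a1 was -0.08 (SE 0.17) with a 95% interval of -0.49 to 0.34, and that of Col4a2 was -0.18 (SE 0.17) with an interval of -0.59 to 0.23. Between the highest and the lowest mouse, Col4a1 differed 1.23-fold and Col4a2 1.29-fold in CPM, and Col4a1 over Col4a2 was 1.69 to 2.14 in TPM.

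Col4a1 and Col4a2 are transcribed away from each other from start sites 21 bases apart on chromosome 8. The interval between and around these starts, chr8:11312777-11312854 of GRCm38.p6 on the plus strand, is where the RefSeq promoter windows of both genes overlap, and it is shown because both genes varied little between mice.
Col4a1 and Col4a2 shared promoter: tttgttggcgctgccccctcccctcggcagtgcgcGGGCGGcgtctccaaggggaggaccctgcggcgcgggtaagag
The capitals mark GGGCGG, the core of the GC box. On either strand of the 300-base RefSeq promoter windows, GGGCGG occurred in 22 of the 35 collagen genes with a window, 62.9%, against 38.2% of all 27025 genes. CCAAT occurred in 13 of 35, 37.1%, against 41.1%, and TGATGNAAT, a form of the composite element that ATF4 binds with C/EBP partners, in 0 of 35 against 1.08%. The other type 4 pairs lie head to head in the same way, Col4a3 and Col4a4 with starts 72 bases apart on chromosome 1 and Col4a5 and Col4a6 with starts 1309 bases apart on chromosome X. Their chains belong to specialised membranes such as those of the kidney, and all were low in BAT.

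Col4a5 (chrX:141475385-141689234, plus strand) was the basement membrane gene that differed most between genotypes by p. It had 98, 109 and 94 counts in ATF4 BKO mice against 212 and 173 counts in WT mice, and the genotypes did not overlap in CPM. Per transcript length it was at 1.21, 0.84 and 0.72 TPM against 1.33 and 1.09 TPM, where ATF4 BKO replicate 1 lay between the WT mice. Its log2 fold change was -0.64 (SE 0.26), with an unadjusted p of 0.045, an edgeR adjusted p of 0.911 and a DESeq2 adjusted p of 0.824. It was -0.74 without ATF4 BKO replicate 1, the mouse with Xist counts, which bears on this gene because it is X-linked, and -0.42 without WT replicate 1. Within the prefixes it was -0.70 and -0.68, nearly the same in each. Col4a3 had 36, 49 and 48 counts in ATF4 BKO mice against 33 and 45 in WT mice, and Col4a4 had 23, 64 and 55 against 32 and 40. Their log2 fold changes of 0.47 (SE 0.29) and 0.65 (SE 0.42) had edgeR adjusted p-values of 0.92. In CPM all 3 ATF4 BKO mice were above both WT mice for Col4a3, though its TPM overlapped.

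Types 15 and 18 are linked to basement membranes and carry endostatin-like domains. Col15a1 was at 58.1, 57.0 and 21.6 TPM in ATF4 BKO mice and at 30.1 and 56.6 TPM in WT mice, low in ATF4 BKO replicate 3 and WT replicate 1 like the fibrillar genes and unlike Col4a1. Its log2 fold change of -0.10 (SE 0.45) became 0.26 with length-scaled counts and 0.01 on both TPM scales. Col18a1 was at 12.7, 16.8 and 10.04 TPM in ATF4 BKO mice and at 12.6 to 14.2 TPM in WT mice, with a log2 fold change of 0.12 (SE 0.17) that was -0.05 on both TPM scales. The middle form Col18a1-202 held 70.2% to 83.3% of Col18a1 counts and the longer Col18a1-201 held 13.0% to 27.0%, with the lowest share of the former and the highest of the latter in WT replicate 1. Col18a1 overlaps Slc19a1 on the opposite strand, and whether the counting used strand is not given in the sources used here.

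The 3 main type 6 genes were nearly equal in level, and Col6a4, Col6a5 and Col6a6 were at a mean of 0.059, 0.047 and 0.12 TPM. Col6a1 was at 73.8, 99.7 and 36.2 TPM in ATF4 BKO mice and at 50.8 and 75.2 TPM in WT mice. Col6a2 was at 70.0, 87.6 and 32.2 TPM and at 47.8 and 66.9 TPM, and Col6a3, the largest chain, whose end is cleaved to endotrophin, was at 73.8, 96.2 and 30.3 TPM and at 49.7 and 77.8 TPM. Each was lowest in ATF4 BKO replicate 3 and highest in ATF4 BKO replicate 2, with WT replicate 1 second lowest, and the genotypes overlapped. The ratio of Col6a1 to Col6a2 stayed at 1.05 to 1.14 and that of Col6a1 to Col6a3 at 0.97 to 1.20 in TPM. The log2 fold changes were 0.32 (SE 0.40), 0.31 (SE 0.39) and 0.11 (SE 0.42), the last turning to -0.05 on both TPM scales. Col6a6 had 27, 38 and 16 counts in ATF4 BKO mice against 15 and 34 in WT mice.

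Summed by class, the fibrillar genes gave 650.0, 640.7 and 182.6 TPM in ATF4 BKO mice and 274.4 and 515.3 TPM in WT mice. The basement membrane class gave 588.0, 729.6 and 546.2 TPM and 718.4 and 720.5 TPM. Type 6 gave 218.0, 283.7 and 98.8 TPM and 148.4 and 220.2 TPM. The fibrillar and type 6 sums were therefore lowest in ATF4 BKO replicate 3 and WT replicate 1, 1 mouse of each genotype, while the basement membrane sum varied little. The ratio of fibrillar to basement membrane TPM was 1.11, 0.88 and 0.33 in ATF4 BKO mice against 0.38 and 0.72 in WT mice.

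**Figure D3:**
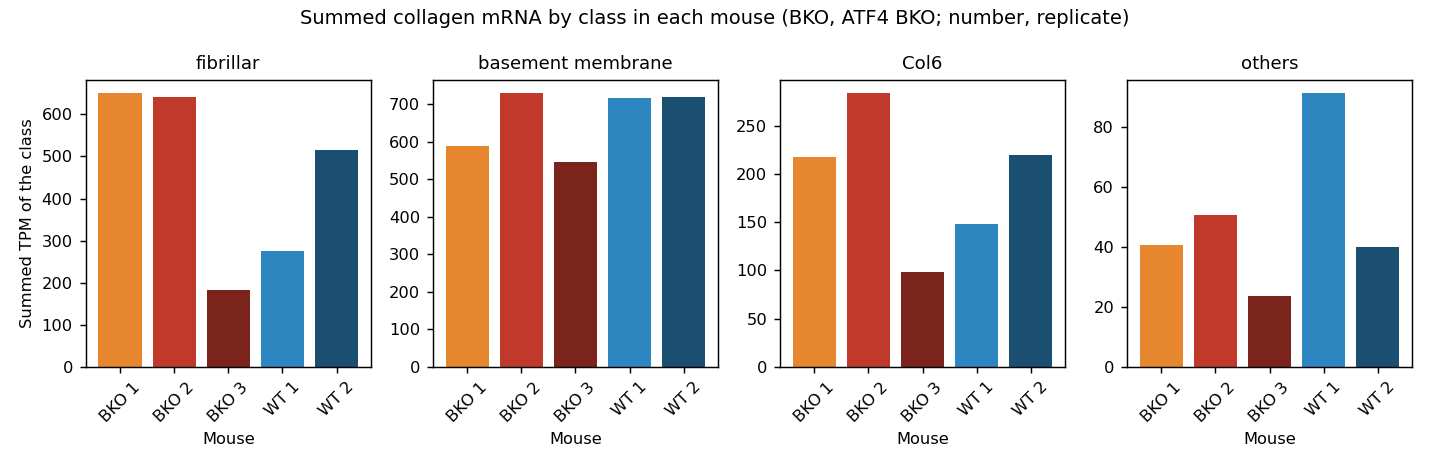
Summed TPM of each collagen class (bars, each panel with its own axis from 0) in each mouse, by genotype and replicate. Fibrillar sums run from 182.6 in ATF4 BKO replicate 3 to 650.0 in ATF4 BKO replicate 1, basement membrane sums from 546.2 to 729.6, and the other collagens stand at 91.2 in WT replicate 1.

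For the main fibrillar and type 6 genes, mice of 1 genotype differed more than the genotypes did. Among the 3 ATF4 BKO mice alone, Col1a1 ranged over 2.23 log2 CPM units, Col3a1 over 1.94 and Col6a1 over 1.32, against genotype differences of 0.61, 0.51 and 0.32. The former are ranges of single mice and the latter differences between groups, and how many other genes show the same was not counted. The range over the 5 mice in log2 CPM had a median of 1.96 for fibrillar genes, 1.35 for type 6, 1.33 for the others, 0.70 for basement membrane genes and 0.66 for all genes tested. Col4a1, with a range of 0.30, was at percentile 13.8 of all genes and Col1a1, with 2.23, at percentile 93.1. ATF4 BKO replicate 3 was the lowest mouse for 20 of the 33 collagen genes and the highest for 0, while over all genes it was lowest for 20.1% and highest for 18.1%. The median log2 fold change was 0.36 for the fibrillar class and 0.32 for type 6, and the former was 0.20 without Col11a1, but within the first prefix (2 ATF4 BKO mice and WT replicate 1) the medians were 1.11 and 0.86 and within the second (1 mouse of each genotype) they were -1.17 and -0.81. With 1 mouse left out, the fibrillar median ran from 0.014 (without ATF4 BKO replicate 2) to 0.83 (without WT replicate 2) and that of type 6 from 0.07 (without WT replicate 1) to 0.62 (without ATF4 BKO replicate 3). Col11a1 failed the filter without ATF4 BKO replicate 1 or 2, so 0.014 and 0.83 are not medians of the same genes. The size and, between prefixes, the direction in these classes thus depended on which mice were set against each other. The basement membrane median was -0.08, with 0.20 and -0.16 within the prefixes, and it turned to 0.15 with length-scaled counts.

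Cell type markers also varied between mice, and the lists did not all follow the fibrillar genes. The 10 markers of fibroblasts and adipocyte progenitors summed to 689.7, 826.0 and 591.9 CPM in ATF4 BKO mice and to 495.7 and 615.1 CPM in WT mice. Their median deviation from the mean of the 5 mice, in log2 CPM, was 0.34, 0.55 and -0.26 in ATF4 BKO mice against -0.43 and 0.05 in WT mice. This put WT replicate 1 and then ATF4 BKO replicate 3 lowest, the same mice as for the fibrillar genes but in reverse order. All 10 had a log2 fold change above 0 (median 0.36), and edgeR and DESeq2 called 0 of them, with 1 at an unadjusted edgeR p under 0.05. Log2 fold changes were also above 0 for 10 of 10 endothelial markers (median 0.37, 2 higher at an unadjusted edgeR p under 0.05) and 10 of 10 macrophage markers (median 0.38, 0 at that p). The same held for 8 of 10 pericyte and smooth muscle markers (median 0.27, 1 higher and 1 lower at that p, 1 called lower by DESeq2) and 8 of 10 Schwann cell markers (median 0.70, 3 higher and 1 lower at that p). Adipocyte lists leaned the same way, with 7 of 10 brown adipocyte markers (median 0.17, 0 at that p) and 7 of 8 general adipocyte markers (median 0.14, 1 higher at that p) above 0. Over all genes the median was 0.01, with 1.81% higher and 3.42% lower at that p. Macrophage markers (10 of 10 tested) summed to 838.4, 1394 and 498.8 CPM in ATF4 BKO mice and to 204.0 and 1155 CPM in WT mice, low in the same mice. Markers of endothelial cells, a main source of Col4a1 and Col4a2, were between 1003 and 1588 CPM, and ATF4 BKO replicate 3, low in fibrillar collagen, had the highest sum. Pericyte and smooth muscle markers stood at 866.3 to 1172 CPM and Schwann cell markers at 252.7 to 315.6 CPM. Brown adipocyte markers summed to 13936 to 17702 CPM in ATF4 BKO mice and to 13895 and 15648 CPM in WT mice, and the general adipocyte markers to 18576 to 22559 CPM and to 15921 and 18882 CPM. Markers of skin epithelium summed to at most 3.50 CPM, of cartilage and tendon to at most 6.13 CPM and of mesothelium to at most 11.2 CPM. The last 2 sums were highest in WT replicate 1. Of the 6 mesothelium markers only 1 passed the count filter, and that marker was above both WT mice in every ATF4 BKO mouse (log2 fold change 0.72). The part of cell composition in the collagen differences was not tested.

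Among the other collagens, the 5 most abundant were Col27a1, Col12a1, Col16a1, Col14a1 and Col13a1. Col12a1 (chr9:79598991-79718831, minus strand) had 439, 667 and 296 counts in ATF4 BKO mice against 5852 and 778 in WT mice, or 4.50, 6.73 and 2.54 TPM and 43.9 and 5.89 TPM. A single mouse, WT replicate 1, was far above the rest, and WT replicate 2 lay among the ATF4 BKO mice. Its log2 fold change was -2.56 (SE 0.82), with an unadjusted p of 0.020, an edgeR adjusted p of 0.911 and a DESeq2 adjusted p of 0.548, and it was -0.37 without WT replicate 1. The full-length form Col12a1-201 held 79.1% of its counts in WT replicate 1 and 73.7% to 84.2% in the other mice, so the form did not set that mouse apart. Col20a1, a related fiber-associated collagen, followed with 59, 59 and 54 counts in ATF4 BKO mice against 155 and 59 in WT mice, and it overlaps another annotated gene on its own strand.

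Col27a1, a relative of the fibrillar collagens with a longest run of 217 glycine units, was at 16.6, 27.3 and 11.2 TPM in ATF4 BKO mice and at 29.3 and 18.6 TPM in WT mice. Col16a1 was at 4.66, 3.71 and 1.70 TPM and at 4.50 and 2.71 TPM, and Col14a1, another collagen of fiber surfaces, at 4.89, 2.71 and 0.56 TPM and at 2.37 and 1.66 TPM. Again ATF4 BKO replicate 3 was lowest for each of these genes. Col13a1, a membrane-spanning collagen, was at 1.13, 2.24 and 1.55 TPM in ATF4 BKO mice and at 2.64 and 2.58 TPM in WT mice, all 3 ATF4 BKO mice below, with a log2 fold change of -0.40 (SE 0.30) and an edgeR adjusted p of 0.93. Col23a1, of the same family, had 28, 34 and 35 counts against 84 and 51, a log2 fold change of -0.78 (SE 0.34). Col8a1, a network-forming collagen of vessels, was steady at 198, 245 and 249 counts against 227 and 218, a log2 fold change of 0.34 (SE 0.18) with all 3 ATF4 BKO mice above in CPM. Col28a1 had 53, 109 and 53 counts against 44 and 57. Col22a1 had 3, 10 and 10 counts against 2 and 2, and since it entered the test through its ATF4 BKO counts alone, nothing is read from its p or its direction. Its log2 fold change of 2.12 (SE 0.73) fell to 0.55 with length-scaled counts, and its main transcript was Col22a1-201 in ATF4 BKO replicate 2 and the shorter Col22a1-204 in replicate 3 and WT replicate 1.

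Genes that handle collagen were described from 6 lists, with 111 genes tested, of which edgeR called 0. An unadjusted edgeR p under 0.05 was reached by 10 of them, 9.01% beside 5.23% of all genes, and DESeq2 called 2, 1.80% beside 0.736%. Without P4ha3, which passed the filter through ATF4 BKO mice alone, these were 9 of 110 (8.18%) and 2 of 110 (1.82%). All 3 ATF4 BKO mice lay below both WT mice for 4 of 111 genes, beside 10.6% of all genes. They lay above both for 10 of 111, or 9 of 110 without P4ha3, beside 8.95% of all genes. Of the 22 chaperones and modifying enzymes, which hydroxylate, fold and export the chains, 11 had log2 fold changes below 0 and 11 above, P4ha3 among the latter, with a median of -0.0015. Serpinh1, the collagen chaperone HSP47, was at 474.0, 257.6 and 260.7 CPM in ATF4 BKO mice and at 429.2 and 453.3 CPM in WT mice, a value given for its role and not by its p. The smallest p in the list belonged to P4ha3, a prolyl hydroxylase subunit, at 0.57, 0.43 and 0.24 CPM against 0.16 and 0.09 CPM (log2 fold change 1.70, SE 0.64), but its 13, 12 and 7 counts against 5 and 3 passed the filter through ATF4 BKO mice alone, so nothing is read from that p.

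Procollagen processing and cross-linking had 13 of 16 genes tested, 7 below 0 and 6 above. Loxl4, a lysyl oxidase, was at 0.22, 0.71 and 0.50 CPM in ATF4 BKO mice and at 6.51 and 0.47 CPM in WT mice. Pcolce2, an enhancer of procollagen cleavage, was at 3.57, 3.56 and 1.92 CPM and at 17.2 and 2.48 CPM, and Loxl1 at 76.6, 86.9 and 74.8 CPM and at 179.8 and 80.9 CPM. Tgm2, a transglutaminase, was at 169.6, 283.1 and 219.4 CPM and at 584.7 and 210.9 CPM. For all 4, the list's smallest p-values, only WT replicate 1 was high, as for Col12a1, and WT replicate 2 lay among the ATF4 BKO mice.

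Matrix partners had 28 of 29 genes tested, 9 below 0 and 19 above (median 0.12). Lamb3, a laminin chain, was at 13.8, 13.8 and 14.97 CPM in ATF4 BKO mice and at 21.9 and 18.6 CPM in WT mice, with log2 fold change -0.51 (SE 0.15) and an edgeR adjusted p of 0.833. Eln, the elastin gene, was at 64.6, 129.5 and 72.1 CPM against 51.6 and 44.2 CPM, a log2 fold change of 0.89 (SE 0.32) with an edgeR adjusted p of 0.911. Lama2 was at 20.8, 25.001 and 18.1 CPM against 13.2 and 16.8 CPM. Fn1, fibronectin, was at 123.3, 100.3 and 49.6 CPM against 47.0 and 57.6 CPM. The genotypes did not overlap for the first 3 of these genes, which were picked by p, and overlapped for Fn1. Over the whole list, 1 of 28 genes was below both WT mice in every ATF4 BKO mouse, beside 10.6% of all genes. Above both were 2 of 28, beside 8.95% of all genes.

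Collagen breakdown and uptake had 18 of 19 genes tested, 4 below 0 and 14 above, with a median of 0.21. Mmp12, the macrophage elastase, was at 28.0, 83.3 and 42.3 CPM in ATF4 BKO mice and at 5.69 and 22.0 CPM in WT mice (log2 fold change 1.89, SE 0.70, edgeR adjusted p = 0.911). Macrophage markers were also lowest in WT replicate 1 and highest in ATF4 BKO replicate 2, but the other mice were in another order. ATF4 BKO replicate 3 had 498.8 CPM of these markers, below 838.4 in ATF4 BKO replicate 1 and 1155 in WT replicate 2, and more Mmp12 than either. The part of macrophages in the Mmp12 level was not tested. Mmp2, Mmp3 and Mmp14 came next, with log2 fold changes of 0.50, -0.54 and 0.46. Of the collagen receptors, 11 of 12 were tested, 4 below 0 and 7 above. Ddr1, a receptor kinase that binds collagen directly, was at 10.8, 13.2 and 9.82 CPM in ATF4 BKO mice and at 23.7 and 16.5 CPM in WT mice, without overlap. Its log2 fold change was -0.84 (SE 0.22), with an edgeR adjusted p of 0.791 and a DESeq2 adjusted p of 0.14. Itga2, Itga11 and Antxr1 had values of 0.99, 1.19 and 0.70 on that scale.

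**Figure D4:**
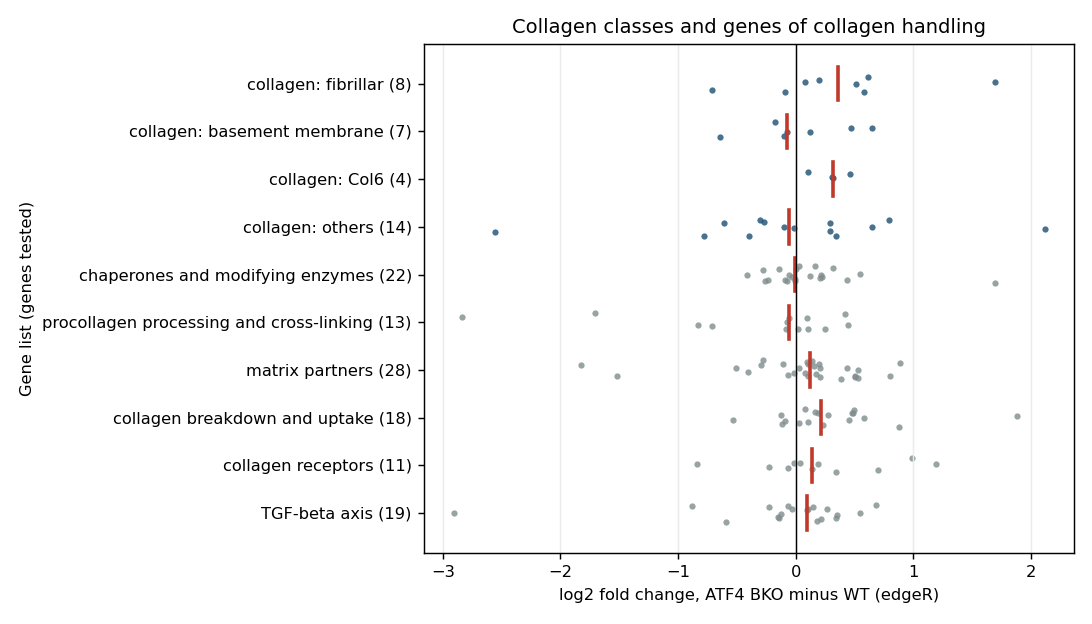
Log2 fold change of ATF4 BKO over WT for each tested gene (points, spread vertically to separate them) of the 4 collagen classes and the 6 lists of genes that handle collagen, with the median of each list (red line). Medians lie between -0.08 and 0.36, and single points far to the left, such as Col12a1 and Loxl4, are genes high in WT replicate 1.

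The TGF-beta axis, a known inducer of fibrillar collagen, had 19 of 19 genes tested, 9 below 0 and 10 above. Smad3, which carries its signal to the nucleus, was at 54.1, 52.0 and 50.6 CPM in ATF4 BKO mice and at 82.8 and 74.3 CPM in WT mice. Ltbp4, a latent TGF-beta binding protein, was at 164.6, 152.3 and 150.8 CPM against 105.5 and 108.1 CPM. Neither overlapped between genotypes. Their log2 fold changes were -0.59 (SE 0.12) and 0.55 (SE 0.12), with DESeq2 adjusted p-values of 0.014 and 0.013, past the threshold, and edgeR adjusted p-values of 0.701 and 0.704, not past it. Tgfbr2 was at 140.1, 134.2 and 133.9 CPM against 103.4 and 122.2 CPM. Smad3 and Ltbp4 are the list genes that passed a threshold in DESeq2. Being separated by genotype, they could not follow the mouse order of the fibrillar collagens, in which the genotypes overlapped, so nothing is read from that. Whether either bears on the collagen levels was not tested.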

How the data were processed

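BAT RNA of 3 ATF4 BKO and 2 WT mice was analysed, 1 library per mouse. The authors prepared stranded mRNA libraries, quantified them with kallisto 0.45.0 (mm10 is named in the submitters' processing notes; the transcript annotation is not given in the sources used here) and deposited estimated counts per transcript, not normalized between mice. The same deposited tables hold TPM, which kallisto derives from those counts and effective lengths. Of 141450 transcripts, 138191 matched GENCODE M21 (GRCm38) by identifier; the rest, 1.16% to 1.29% of counts, were dropped. Sums per gene were rounded to whole numbers. The test was edgeR 4.0.16 under R 4.3.3 (TMM, at least 10 counts in at least 2 mice, quasi-likelihood test, genotype alone, Benjamini-Hochberg over 16450 genes); the common dispersion was 0.0758, with 3 residual and 3.06 prior degrees of freedom. DESeq2 1.42.0 and limma 3.58.1 on log2(TPM + 1) and log2(TPM + 0.1) were alternatives, beside other scalings, length-scaled counts, filters, left-out mice, blocks and a muscle covariate. Simulated counts used a dispersion of 0.075 and 200 changed genes; edgeR made 5 false calls and DESeq2 18. CPM are TMM-scaled.

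The collagen genes, lists and tests were chosen with earlier results of these data known. Genes were named by rule: collagens of types 1, 3, 4, 5, 6, 15 and 18, the 5 most abundant others, any with an unadjusted p under 0.05, and up to 4 genes per list by smallest p. One gene that this rule names is not reported here. Serpinh1, Col8a1, Col11a1, Col11a2, Col20a1, Col23a1, Col28a1 and Cacna1i were named after their values were seen. All 224 list symbols matched. No pair of libraries agreed within sampling noise. Promoter and coding sequences came from RefSeq (GRCm38.p6) and GENCODE M21.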

Additional observations from a re-analysis of the deposited data

How the results depend on the processing

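None of the 33 collagen genes past the filter was called in the main comparison or in any of the 16 alternative fits that kept it. In the alternative fits on all 5 mice the smallest adjusted p was 0.104 (edgeR with the muscle covariate). The 11 collagen genes that did not pass the filter were not looked up in the fit without it. Over all genes, edgeR called 1, DESeq2 121, edgeR without the count filter 8 and edgeR with a muscle covariate 217; limma called 0 on log2(TPM + 1) and 2 on log2(TPM + 0.1). Leaving out 1 mouse gave 0 to 23 calls: 23 without WT replicate 1, 1 without WT replicate 2 and 0 without ATF4 BKO replicate 1, 2 or 3, beside 794, 1101 and 506 genes at an unadjusted p under 0.05. Same-numbered mice had deviations correlated at 0.05 and 0.20 over 2 pairs and share only a number. The fit with this pairing as a replicate block called 0 genes in edgeR (711 unadjusted), its basement membrane median was 0.25, and Col5a3 and Col15a1 turned to 0.089 and 0.27. With the name prefix as a block edgeR called 0 (876 unadjusted), and limma on log2(TPM + 1) had 1431 unadjusted.

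With the muscle covariate the median log2 fold change was 0.52 for all collagens, 1.43 for fibrillar, 0.21 for basement membrane and 1.22 for type 6 genes, and Col15a1 was 0.97. Muscle marker levels did not overlap between genotypes, so that fit cannot tell the covariate and genotype apart. The medians within the first prefix were 0.56 for all and 0.20 for basement membrane genes. Within the second they were -0.45 for all, -1.17 for fibrillar, -0.81 for type 6 and -0.39 for the others. Length-scaled counts gave a basement membrane median of 0.15 and 0.26 for Col15a1. On log2(TPM + 1) and log2(TPM + 0.1), Col5a1 was -0.27 and -0.31, Col5a2 -0.024 and -0.029, Col6a3 -0.050 and -0.053, Col15a1 0.0096 and 0.0077, Col16a1 -0.12 and -0.17, and Col18a1 -0.046 and -0.051. The prefix block gave a median of -0.06 for all collagens, -0.33 for Col5a1, -0.13 for Col6a3, -0.15 for Col14a1 and -0.056 for Col16a1. Library totals alone gave -0.019 for Col5a1, and protein-coding transcripts gave 0.0055 for Col4a1.

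With 1 mouse left out, the median ranged from -0.05 (without ATF4 BKO replicate 1) to 0.37 for all collagens, from 0.014 to 0.83 for fibrillar genes, from 0.07 to 0.62 for type 6, from -0.14 to 0.24 for basement membrane genes (highest without ATF4 BKO replicate 3) and from -0.29 to 0.25 for the others (highest without WT replicate 1). Col11a1 failed the filter without ATF4 BKO replicate 1 or 2, and Col22a1 without ATF4 BKO replicate 2 or 3. The medians for all collagens, fibrillar genes and the others thus cover differing genes. Single genes ranged from 0.24 to 1.12 (Col1a1), 0.17 to 1.16 (Col1a2) and 0.12 to 1.05 (Col3a1), each lowest without WT replicate 1 and highest without WT replicate 2, and from -0.16 to 0.0016 (Col4a1), -0.24 to 0.48 (Col5a1), -0.13 to 0.64 (Col5a2), -0.20 to 0.088 (Col5a3), -0.14 to 0.44 (Col6a3), -1.40 to 0.64 (Col11a2), -0.37 to 1.15 (Col14a1), -0.37 to 0.24 (Col15a1), -1.19 to 0.33 (Col20a1) and -0.63 to 0.18 (Col27a1). The cause of these moves was not tested. Over all fits, which leave out the differences within a prefix, Col4a5 and Col12a1 kept a log2 fold change below 0, at -0.90 to -0.20 and -3.95 to -0.37. This was not particular to them. Col4a2, Col13a1 and Col23a1 also stayed below 0, and several genes stayed above it, among them Col1a1 (0.17 to 2.03), Col1a2 (0.17 to 2.11) and Col3a1 (0.12 to 1.89). With 2 WT mice, 1 pair sets the spread of that group, and where 1 WT mouse is left the other is assumed to vary like the ATF4 BKO mice.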
